A study of Rattus norvegicus with 18 samples.

Results

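The 6 genes described here encode amino acid transporters of the kidney's proximal tubule or the protein chains they pair with: Slc6a19, Slc7a9, Slc3a1, Slc7a7, Slc7a8 and Slc3a2. They were taken by identifier (ENSMUSG00000021565, ENSMUSG00000030492, ENSMUSG00000024131, ENSMUSG00000000958, ENSMUSG00000022180 and ENSMUSG00000010095) from a table of read counts for 55335 gene identifiers, and all 6 were among the 19233 that passed the filter on low counts. The counts came from polyadenylated RNA of whole kidney, in 18 libraries of 6 animals per group. Treat animals carried the diabetic nephropathy model and received TSK, named in the labels by this abbreviation alone, orally for 4 weeks at a daily 500 mg/kg. DN animals carried the same model, made by a high-fat diet and an injection of STZ (streptozotocin, a toxin of insulin-producing cells), and Ctrl animals had ordinary feed and solvent by gavage. The labels name the animals as rats and give no strain, age or sex, while the identifiers and the builds in the submitters' processing notes are those of the mouse. The names of the 6 genes follow from the identifiers by the rule that chose them.

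Cells of the proximal tubule take back nearly all amino acids that the glomerulus filters. Slc6a19 encodes B0AT1, the sodium-driven carrier of neutral amino acids in the brush border, whose loss causes Hartnup disorder in humans. Slc7a9 encodes the light chain b0,+AT and Slc3a1 its heavy chain rBAT, which together import cystine and basic amino acids at the brush border and whose loss causes cystinuria. At the basolateral side, Slc7a7 encodes y+LAT1, an exporter of basic amino acids that is defective in lysinuric protein intolerance, and Slc7a8 encodes LAT2, an exchanger of neutral amino acids. Both of these light chains are joined to the CD98 heavy chain encoded by Slc3a2, which many other cell types also make.

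Rat promoter windows of RefSeq on the build GRCr8 matched all 6 symbols. Shown are the window of Slc6a19, the gene with the largest difference between Treat and DN, and those of Slc7a8 and Slc3a2, the members whose counts varied most alike. They lie at chr1:31414494-31414793 (plus strand), chr15:32212666-32212965 (minus strand) and chr1:215048015-215048314 (minus strand, the upstream one of 2 windows of this gene), each of 300 bases around a transcription start. Capitals mark matches on either strand to 5 motifs: the HNF1 half-site GTTAAT, the HNF4 half-site CAAAGT, the TATA box TATAAA, the ATF4 element TGATGNAA and the antioxidant response element TGACNNNGC.
Slc6a19: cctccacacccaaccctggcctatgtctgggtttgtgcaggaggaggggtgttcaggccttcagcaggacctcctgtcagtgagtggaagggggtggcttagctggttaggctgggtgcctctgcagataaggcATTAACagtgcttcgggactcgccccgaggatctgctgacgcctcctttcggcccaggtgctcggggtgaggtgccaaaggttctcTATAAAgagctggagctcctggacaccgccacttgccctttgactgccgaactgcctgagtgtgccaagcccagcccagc
Slc7a8: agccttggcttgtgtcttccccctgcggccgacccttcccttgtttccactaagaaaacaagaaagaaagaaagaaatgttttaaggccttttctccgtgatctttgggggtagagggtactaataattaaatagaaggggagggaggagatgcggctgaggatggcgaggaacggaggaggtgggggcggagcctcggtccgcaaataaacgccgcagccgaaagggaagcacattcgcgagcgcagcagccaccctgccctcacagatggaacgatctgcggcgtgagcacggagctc
Slc3a2: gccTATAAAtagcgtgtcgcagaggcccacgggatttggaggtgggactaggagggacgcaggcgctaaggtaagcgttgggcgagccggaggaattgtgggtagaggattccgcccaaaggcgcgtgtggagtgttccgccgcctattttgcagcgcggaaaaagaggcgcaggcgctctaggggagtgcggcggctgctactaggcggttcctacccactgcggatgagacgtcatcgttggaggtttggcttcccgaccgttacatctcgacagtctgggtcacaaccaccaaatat
The Slc6a19 window held an HNF1 half-site at position -116 from the start, on the minus strand, and a TATA box at -30, motifs present in 7.45% and 14.2% of 33469 rat windows of this length. The Slc3a2 window shown held a match to the TATA box letters at -247, and the Slc7a8 window held none of the 5 motifs. The other Slc3a2 window, not shown, held an antioxidant response element at -45, on the minus strand, a motif present in 12.1% of windows. These matches are descriptions of the letters in the windows.

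Libraries held 22040987 to 35275498 counts, and the members had 762 to 23979 counts per library, so that counting error was at most 3.62% of a value. Levels are given as CPM (counts scaled to a common library size, with TMM factors), are not corrected for gene length and are not compared between genes. In whole tissue, fewer proximal tubule cells and less RNA per cell cannot be told apart. The controls were not uniform: the identifier ENSMUSG00000086503 had 12 to 41 counts in the Treat and DN libraries, 23 in control library 4, and 38313 to 52784 in the other 5 controls. This division of the controls runs with the model, so every difference from Ctrl below carries it. Whether it marks a difference between the animals that the labels do not give, such as sex, was not tested. In what follows library 4, the lone control on the side of the DN and Treat animals, is given beside each comparison with Ctrl. Control library 5 stood apart in ENSMUSG00000029368, at 5999.8 CPM against at most 70.4 CPM in any other library, and leaving it out changed no call among the members.

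All 6 transcripts had their lowest mean in Treat, the middle one in DN and the highest in Ctrl, an order that 27.8% of the 19233 tested genes shared. In Treat against DN, Slc6a19 and Slc7a7 fell, 2 of 6 members, where 0.858% of all tested genes were called lower and 1.39% in either direction (quasi-likelihood test of edgeR, Benjamini-Hochberg adjusted over all tested genes, adjusted p under 0.05). In DN against Ctrl, Slc6a19, Slc7a7, Slc7a8 and Slc3a2 fell, 4 of 6, against a background of 15.3% called lower and 32.2% in either direction. In Treat against Ctrl, 5 of 6 fell, all but Slc3a1, against 21.9% lower and 44.9% in either direction. The median log2 fold change of the 6 was -0.41 in Treat versus DN, -0.61 in DN versus Ctrl and -1.04 for Treat versus Ctrl, and that of all tested genes was -0.01, 0.01 and 0.02. On TMM-scaled CPM, all libraries of 1 group lay below all of the other for 2 members in Treat against DN. This held for 3 members in DN against Ctrl and 4 in Treat against Ctrl. The shares of all tested genes that did so were 1.03%, 7.89% and 13.2%. These comparisons share libraries, the DN ones or the Ctrl ones.

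**Figure D1:**
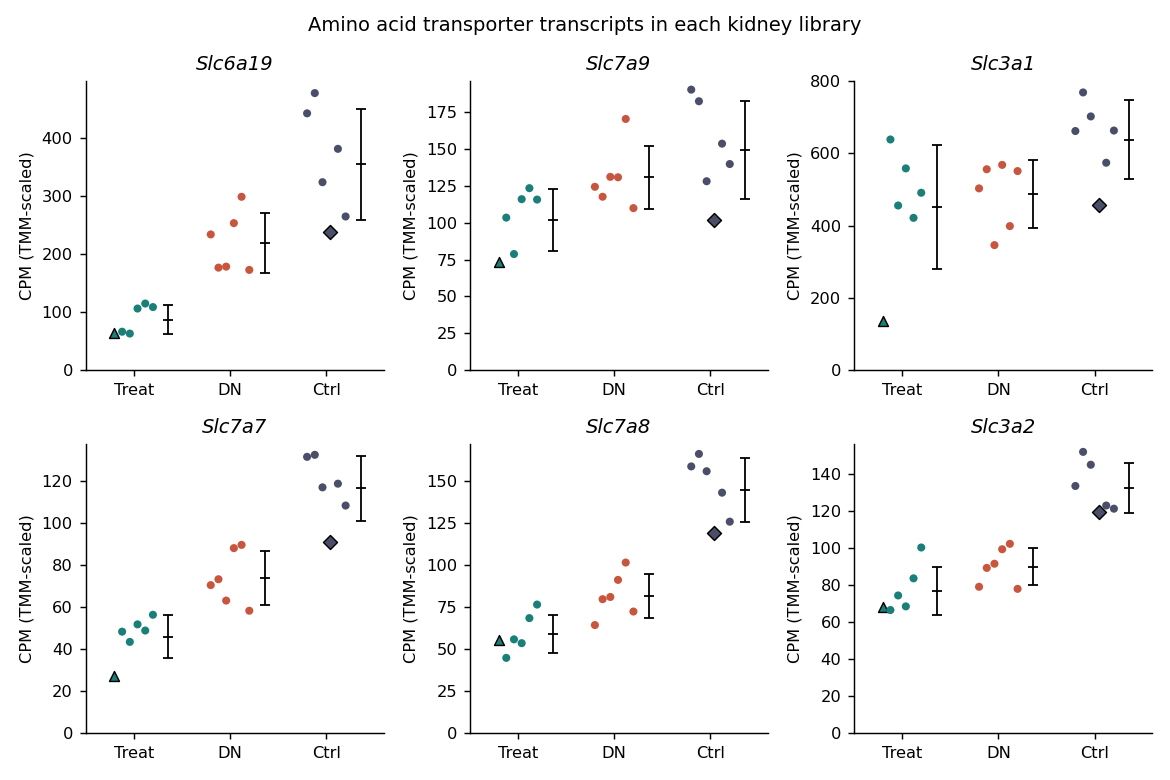
Each panel plots the CPM of 1 gene on a linear axis, with 1 point per library for Treat, DN and Ctrl and the mean ± SD (n = 6) to the right of each group. The triangle is treated library 1 and the diamond control library 4, which was the lowest control for 6 of 6 genes.

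The brush-border carrier of neutral amino acids showed the largest difference. Slc6a19 had 63.7, 66.3, 63.1, 106, 115 and 109 CPM in Treat libraries 1 to 6, against 234, 177, 178, 253, 299 and 173 CPM in DN libraries 1 to 6 and 442, 477, 324, 239, 381 and 265 CPM in Ctrl libraries 1 to 6. Every Treat library lay below every DN library, while DN libraries 4 and 5 reached into the range of the controls. The means were 87.2 ± 25.1 CPM in Treat, 219 ± 51.6 CPM in DN and 355 ± 95.8 CPM in Ctrl (SD, n = 6 each). In Treat against DN the level was 0.398-fold (log2 fold change -1.33, SE 0.21; edgeR, adjusted p = 0.00488), the 19th smallest p of 19233 genes and the 88th largest fall. This call held in each of 29 alternative settings, with log2 fold changes of -1.42 to -1.19 and adjusted p of 1.58e-07 to 0.0172. Those that changed only the controls gave -1.33, since controls enter this difference only through the filter, the scaling and the shared spread. The same limit applies to the other members in Treat against DN.

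In DN against Ctrl, Slc6a19 was 0.617-fold (log2 fold change -0.70, SE 0.21; edgeR, adjusted p = 0.0152). Control library 4, at 239 CPM, lay above 4 of 6 DN libraries and above 6 of 6 Treat libraries. With the division of the controls as a term in the fit, which leaves library 4 as the one control to compare with, the log2 fold change was -0.13 (SE 0.36; edgeR, adjusted p = 0.877; range over all alternatives 0.00359 to 0.877). Treat against Ctrl stayed called in that fit (log2 fold change -1.45, SE 0.33, edgeR adjusted p = 0.0104, against -2.02, SE 0.21, adjusted p = 1.16e-06 without the term).

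The cystine transporter of the brush border moved less. Its light chain Slc7a9 had 73.5, 103, 78.7, 116, 123 and 116 CPM in Treat libraries 1 to 6, against 124, 118, 131, 131, 170 and 110 CPM in DN and 190, 182, 128, 102, 154 and 140 CPM in Ctrl, in library order. The groups overlapped throughout, and 3 of 6 Treat libraries were below all DN libraries. Slc7a9 averaged 102 ± 20.9 CPM in Treat, 131 ± 21.1 CPM in DN and 149 ± 33.3 CPM in Ctrl (SD, n = 6 each). Neither Treat against DN (log2 fold change -0.36, SE 0.16; edgeR, adjusted p = 0.262) nor DN against Ctrl (-0.19, SE 0.16; adjusted p = 0.366) passed the test. Treat against Ctrl did (-0.55, SE 0.16; edgeR, adjusted p = 0.00839), but control library 4 (102 CPM) was below all 6 DN libraries and above 2 of 6 Treat libraries, and with the division as a term the log2 fold change was -0.0036 (edgeR, adjusted p = 0.995; range over all alternatives 0.00194 to 0.995).

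Its heavy chain Slc3a1 had 138, 638, 456, 558, 422 and 491 CPM in Treat libraries 1 to 6, against 503, 556, 346, 568, 399 and 551 CPM in DN and 662, 769, 702, 456, 574 and 663 CPM in Ctrl, in library order. Treated library 1 was far below the others, and the other 5 Treat libraries overlapped the DN range, with library 2 above all DN libraries and DN libraries 3 and 5 below all 5 of them. Means were 450 ± 172 CPM in Treat, 487 ± 93.1 CPM in DN and 638 ± 109 CPM in Ctrl (SD, n = 6 each), and 513 ± 86.5 CPM in Treat without library 1 (n = 5). No comparison of Slc3a1 passed the edgeR test with all libraries (log2 fold change -0.11 in Treat versus DN, adjusted p = 0.863; -0.39 in DN versus Ctrl, adjusted p = 0.237; -0.50 in Treat versus Ctrl, adjusted p = 0.105). In Treat versus DN, an interval of 2 SE either side ran from -0.60 to 0.38, which does not show that the groups were alike. Without treated library 1, DN against Ctrl was called at the same log2 fold change of -0.39 and a smaller SE (0.14, against 0.25 with that library; edgeR, adjusted p = 0.0422; range over all alternatives 0.00861 to 0.932) and the log2 fold change of Treat versus DN was 0.075. Control library 4, at 456 CPM, lay above 2 of 6 DN libraries and 3 of 6 Treat libraries, and with the division as a term the log2 fold changes against Ctrl were -0.02 in Treat and 0.094 in DN.

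On the basolateral side the exporter of basic amino acids fell in both steps. Slc7a7 had 26.9, 48.3, 43.4, 51.8, 48.8 and 56.3 CPM in Treat libraries 1 to 6, against 70.5, 73.3, 63.1, 88.1, 89.7 and 58.3 CPM in DN and 132, 133, 117, 90.9, 119 and 108 CPM in Ctrl, in library order. On these TMM-scaled values, all Treat libraries lay below all DN libraries, and these below all Ctrl libraries including library 4. Of 19233 genes, 44 had this arrangement (0.229%). The gaps were narrow, 56.3 CPM in Treat library 6 against 58.3 CPM in DN library 6, and 89.7 CPM in DN library 5 against 90.9 CPM in control library 4. The TMM factors of Treat library 6 and DN library 6 were 1.061 and 1.003, and the order of these libraries depends on that scaling. The means were 45.9 ± 10.2 CPM in Treat, 73.8 ± 12.8 CPM in DN and 117 ± 15.6 CPM in Ctrl (SD, n = 6 each). Treat against DN was 0.622-fold (log2 fold change -0.68, SE 0.15; edgeR, adjusted p = 0.0308). This call was lost in 7 of 29 alternatives with little change in the fold change (-0.75 to -0.55; adjusted p 0.00167 to 0.0852), among them leaving out treated library 3 (adjusted p = 0.0738) or DN library 1, 2 or 4 (0.0512, 0.0636 and 0.0852).

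DN against Ctrl was 0.633-fold for Slc7a7 (log2 fold change -0.66, SE 0.15; edgeR, adjusted p = 0.00274). With the division as a term it was -0.30 (SE 0.26; edgeR, adjusted p = 0.536; range over all alternatives 5.98e-05 to 0.536), while Treat against Ctrl stayed called in that fit (-0.99; adjusted p = 0.0206).

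The basolateral exchanger Slc7a8 had 55.5, 44.6, 55.6, 53.4, 68.3 and 76.3 CPM in Treat libraries 1 to 6, against 64.1, 79.5, 80.8, 91.0, 101 and 72.2 CPM in DN and 158, 166, 156, 119, 143 and 126 CPM in Ctrl, in library order. DN and Ctrl did not overlap, and 4 of 6 Treat libraries lay below all DN libraries. It averaged 59.0 ± 11.4 CPM in Treat, 81.5 ± 13.2 CPM in DN and 145 ± 19.0 CPM in Ctrl (SD, n = 6 each). Slc7a8 had the largest difference of the 6 in DN against Ctrl, at 0.564-fold (log2 fold change -0.83, SE 0.13; edgeR, adjusted p = 0.000126). With the division as a term that value was -0.54 (SE 0.23; edgeR, adjusted p = 0.165; range over all alternatives 3.46e-08 to 0.165), and library 4 (119 CPM) lay above 6 of 6 DN libraries. Treat against DN did not pass the test (log2 fold change -0.47, SE 0.13; edgeR, adjusted p = 0.0797), though it did with DESeq2 (-0.46; adjusted p = 0.0283) and without treated library 6 (-0.56; edgeR, adjusted p = 0.0472; range over all alternatives 0.0283 to 0.179).

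Slc3a2, the heavy chain that both basolateral carriers share, had 68.0, 66.3, 74.2, 68.3, 83.5 and 100.1 CPM in Treat libraries 1 to 6, against 78.9, 89.1, 91.4, 99.2, 102 and 77.8 CPM in DN and 133, 152, 145, 119, 123 and 121 CPM in Ctrl, in library order. Every Treat and every DN library was below every Ctrl library, library 4 included, whereas Treat and DN overlapped. Means were 76.7 ± 13.1 CPM in Treat, 89.7 ± 10.1 CPM in DN and 132 ± 13.6 CPM in Ctrl (SD, n = 6 each). The transcript was 0.679-fold in DN against Ctrl (log2 fold change -0.56, SE 0.11; edgeR, adjusted p = 0.000633) and did not pass the test in Treat against DN (-0.23, SE 0.11; adjusted p = 0.296). With the division as a term, DN against Ctrl was -0.41 (SE 0.19; edgeR, adjusted p = 0.219; range over all alternatives 8.13e-06 to 0.219) and Treat against Ctrl was -0.63 (adjusted p = 0.0411).

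**Figure D2:**
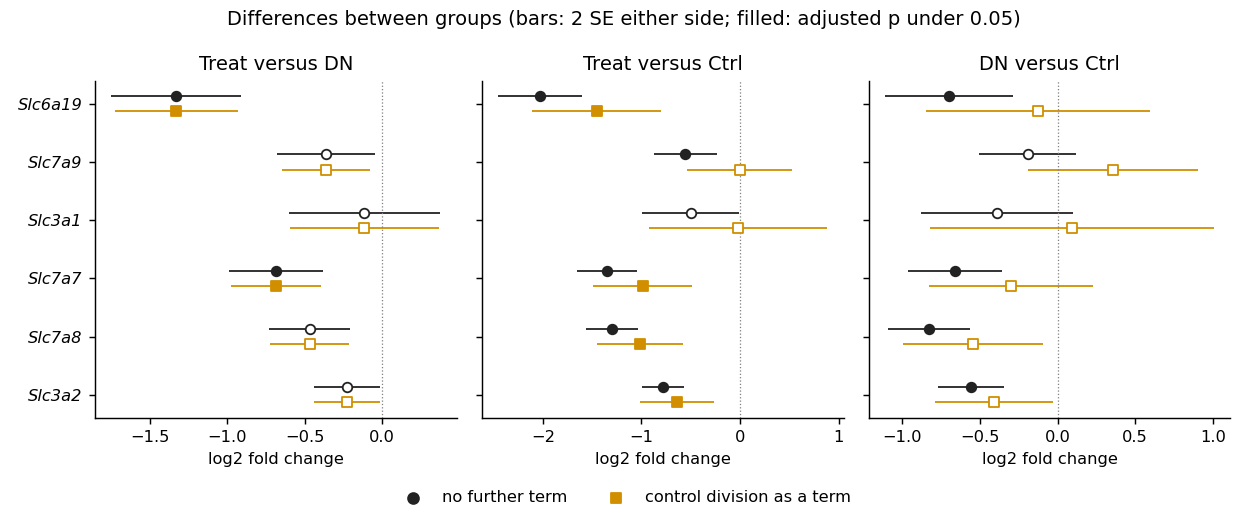
Log2 fold changes of the 6 genes (rows) in the 3 comparisons (panels), without a further term (black circles) and with the control division as a term (yellow squares), with bars of 2 SE either side and filled symbols where the edgeR adjusted p was under 0.05. With the term, 0 of 6 genes were called in DN versus Ctrl, 4 for Treat versus Ctrl and 2 for Treat versus DN, where it called 5.13%, 9.68% and 1.66% of all tested genes.

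In the fit with the division as a term, edgeR called 0 of the 6 members in DN against Ctrl, and 2 of them, Slc7a8 and Slc3a2, had an unadjusted p under 0.05. That fit called 5.13% of all tested genes in DN against Ctrl, 9.68% in Treat against Ctrl and 1.66% in Treat against DN, so that 0 of 6 is near the share of all genes. Whether the diet and STZ or the difference between control library 4 and the other controls accounts for the DN values cannot be told apart with 1 such control. In Treat against DN no control enters the difference, and the term had the same value in every library. It could not move that difference, so the same 2 members staying called is no check of those calls.

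Ratios of counts within a library need no scaling between libraries. They were chosen after the counts had been seen and are given without a test. The count of Slc6a19 was 0.641 to 0.940 times that of Slc7a9 in Treat (median 0.891), 1.36 to 1.94 times in DN (median 1.66) and 1.89 to 2.62 times in Ctrl (median 2.41). Treat and DN did not overlap in this ratio, DN and Ctrl touched in 1 pair of libraries, and control library 4, at 2.34, lay above all DN libraries and inside the range of the other controls. Set against Slc7a8 in place of Slc7a9, Slc6a19 had 1.13 to 1.99 times its count in Treat (median 1.46), 2.21 to 3.65 times in DN (median 2.59) and 2.01 to 2.88 times in Ctrl (median 2.39). In this second ratio control library 4, at 2.01, was the lowest control and lay below all DN libraries. In both ratios Treat lay below DN without overlap. Both share Slc6a19, which already separated these groups in CPM, so they are not separate evidence. At the median, DN was lower than Ctrl in the first and higher in the second.

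The ratio of Slc7a8 to its heavy chain Slc3a2 was 0.673 to 0.818 in Treat, 0.813 to 0.992 in DN and 0.998 to 1.19 in Ctrl, where control library 4 was the lowest at 0.998. Slc7a7 to Slc3a2 stood at 0.396 to 0.758 in Treat, 0.691 to 0.893 in DN and 0.763 to 0.987 in Ctrl. Control library 4 was again the lowest control, at 0.763, close to treated library 4 at 0.758. For Slc7a9 to Slc3a1 the groups overlapped throughout (0.162 to 0.535 in Treat, 0.199 to 0.427 in DN, 0.182 to 0.287 in Ctrl), and the highest value was that of treated library 1. In that ratio control library 4, at 0.224, lay inside the range of the other controls. The light chains of the basolateral carriers thus had fewer counts per count of their heavy chain in Treat than in Ctrl. There was no overlap, though narrowly so for Slc7a7. How often other pairs of genes separate in this way was not tested.

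**Figure D3:**
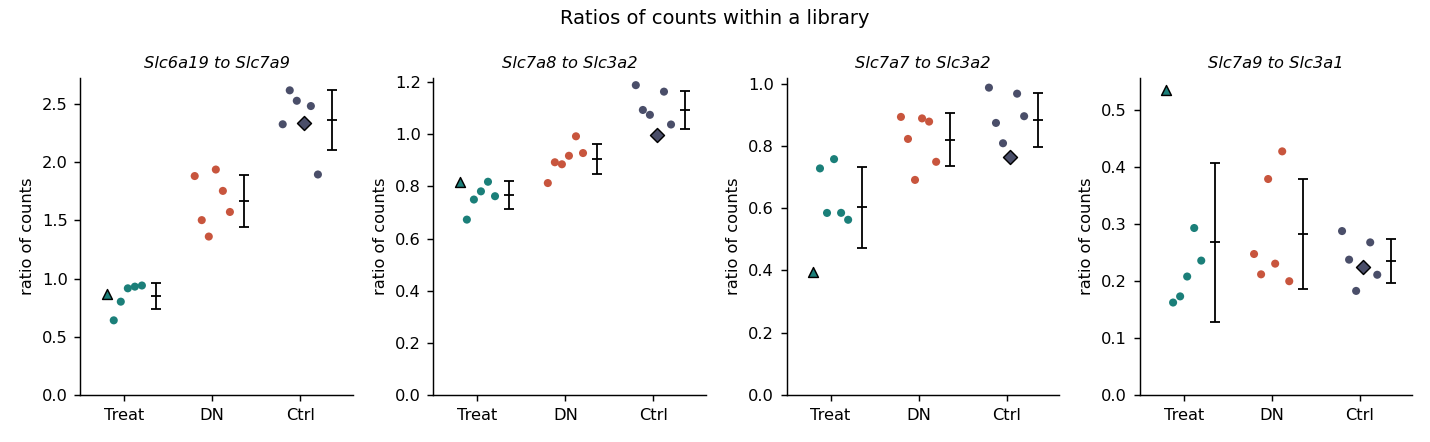
Ratio of the counts of 2 genes in the same library, 1 point per library for Treat, DN and Ctrl, with the mean ± SD (n = 6) to the right of each group. The triangle is treated library 1 and the diamond control library 4. Slc6a19 to Slc7a9 runs from 0.641 to 0.940 in Treat and from 1.36 in DN.

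Within groups, some of the members varied together from animal to animal. Deviations of log2 CPM from the group mean were correlated over the 18 libraries for all 15 pairs of members, with p values from 100000 permutations within groups, adjusted over the 15 pairs. Pearson's r and Spearman's rho each passed for 9 of the 15 pairs, and both passed for 8, of which 0 included Slc3a1. The share of all gene pairs that would pass was not counted, so these counts do not set the members apart from other genes. Among pairs that passed both, Slc3a2 ranked 1517th of 19232 genes in Pearson likeness to Slc7a7. Slc7a8 ranked 904th in likeness to Slc7a9. Slc7a8 and Slc3a2 were closest (Pearson r = 0.921, adjusted p = 5e-05; Spearman rho = 0.922, adjusted p = 7.5e-05; permutation tests), at 0.907 without the 2 libraries farthest from the median of Slc7a8. An unadjusted p of 1e-05 is the smallest these permutations can give, and both of these had it. Among 19232 other genes, Slc3a2 was the one most like Slc7a8, and Slc7a8 was the second most like Slc3a2.

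Slc6a19 and Slc7a9, both of the brush border, gave r = 0.875 (adjusted p = 5e-05) and rho = 0.895 (adjusted p = 0.0001, permutation tests), and r = 0.838 without the 2 farthest libraries. Slc7a9 was the third most like Slc6a19 of all tested genes. Slc7a9 with Slc7a7 gave r = 0.800 (adjusted p = 0.000112) and rho = 0.802 (adjusted p = 0.000525, permutation tests), and r = 0.710 without control library 4 and treated library 1. Many other genes were closer to either: Slc7a9 ranked 254th of 19232 in likeness to Slc7a7, and Slc7a7 ranked 67th in likeness to Slc7a9. The subunits Slc7a9 and Slc3a1 did not pass this test (r = 0.424, adjusted p = 0.126; rho = 0.205, adjusted p = 0.534; permutation tests), and without the same 2 libraries r was -0.10. Slc3a1 with Slc7a7 had r = 0.740 (adjusted p = 0.036, rho = 0.515, adjusted p = 0.0562, permutation tests), which rested on those 2 libraries, since r was 0.268 without them. Libraries share depth and tissue sampling across genes, and the part of these in the correlations was not tested. Control library 4, the lowest control for 6 of 6 members, enters as a deviation within Ctrl. The control division can therefore add to these correlations. The pair Slc7a8 and Slc3a2 was rechecked without treated libraries 2 and 6, but not without control library 4.

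**Figure D4:**
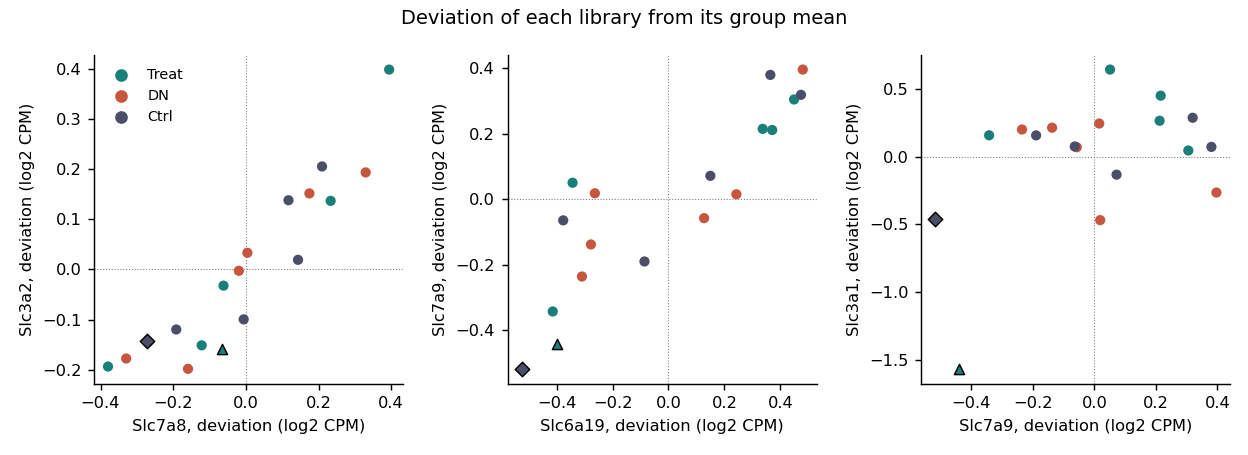
Deviation of each library from its group mean in log2 CPM for 3 pairs of genes, coloured by group, with treated library 1 as a triangle and control library 4 as a diamond. Slc7a8 and Slc3a2 lie along a line (r = 0.921), as do Slc6a19 and Slc7a9 (r = 0.875), while Slc7a9 and Slc3a1 show no such line (r = 0.424, and -0.10 without control library 4 and treated library 1, which are low for both genes).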

How the data were processed

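The deposited table holds the authors' raw count of each gene in each library, unnormalized. Per the submitters' processing notes the builds were GRCm38 and mm10; the aligner, the counting tool, its strand setting and the annotation release were not given in the sources used here. Columns were matched to samples by library name (0 columns were left over), and groups came from the sample titles. Counts were fitted in R 4.3.3 with edgeR 4.0.16 over all 18 libraries: filterByExpr (19233 genes), TMM, 1 coefficient per group, glmQLFit and glmQLFTest, with Benjamini-Hochberg adjustment over all tested genes and calls at an adjusted p under 0.05. SE came from the F statistics, with a prior count of 2 for log2 CPM. The fit was tested on simulated data for DN versus Ctrl alone. The simulated counts held no division of the controls and no outlying library, so that run does not bear on either. Libraries totalled 22040987 to 35275498 counts, so that the spread between animals exceeds counting error for the 6 genes. If reads of rats were counted against the mouse, losses may differ between genes.

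The 6 members are named by the rule that chose them, and they and all lists and alternatives were chosen with earlier results of these data known. For the 16 pathway and marker lists (121 symbols), 0 symbols could be tied to an identifier with the rat gene table, so other pathway genes and kidney cell type markers were not analysed here. For each member the 3 most similar genes were sought, and those that are members are named. Alternatives were DESeq2 1.42.0, limma 3.58.1 (voom with quality weights), other scalings and filters, the replicate block, the division of the controls (over 1000 counts of ENSMUSG00000086503), and libraries left out.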

Additional observations from a re-analysis of the deposited data

Results flagged for a closer look

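DN library 5 held 170.3 CPM of Slc7a9, farther above the other DN libraries (110 to 131 CPM) than a gap test for single outlying libraries allows. It was the only one of 18 combinations of gene and group to be picked out, and chance alone picks out about 1 in 20 groups. On these TMM-scaled values the same library was the highest DN library for 5 of the 6 members. Its TMM factor, 0.886, was the lowest of all libraries, against 0.964 to 1.003 in the other DN libraries. A low factor raises the CPM of every gene in that library. The gap was not tested on values without TMM factors.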

How the results depend on the processing

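Of 29 alternatives, the division of the controls as a term changed the most calls of members in the comparisons with Ctrl. It changed 0 in Treat versus DN, where the term has the same value in every library and so cannot move the difference. In DN versus Ctrl it left 0 of 6 members called (986 of all genes, against 6202), with log2 fold changes of -0.13 for Slc6a19, -0.30 for Slc7a7, -0.54 for Slc7a8, -0.41 for Slc3a2, 0.36 for Slc7a9 and 0.094 for Slc3a1, the last 2 of the opposite sign. In Treat versus Ctrl it gave -0.0036 for Slc7a9, no longer called, and 1862 calls among all genes, against 8629. That fit has 1 control as its base, and the cause was not tested.

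In Treat versus DN, Slc7a7 lost its call, leaving 1 member, with no filter (-0.68), with only the 12 libraries compared (-0.67) and with the replicate block (-0.69, adjusted p = 0.0813); with 1 library left out it ranged from -0.75 to -0.57, with 1 to 3 members called. Slc7a8 gained a call with DESeq2 (-0.46) and ranged from -0.56 to -0.40 with 1 library left out. Slc3a1 ranged from -0.24 to 0.075 and was 0.093 without control library 4 and treated library 1, an alternative added after the data had been seen. Without both libraries it was called in DN versus Ctrl (-0.48) and Treat versus Ctrl (-0.39), and in Treat versus Ctrl also with limma voom (-0.45). With 1 library left out, Slc3a1 ranged from -0.47 to -0.31 in DN versus Ctrl. In Treat versus DN the number of all genes called, 268, was 786 with DESeq2, 775 with library totals, 737 with limma voom, 593 without control library 4 and treated library 1, 119 with no filter, 116 with only the libraries compared, 117 with the replicate block, and 97 to 446 with 1 library left out. Library totals shifted the median of all genes by 0.13 in Treat versus DN, and all 6 members stayed below 0 (Slc6a19 at -1.19, Slc3a1 at -0.0040).

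Same-numbered libraries of different groups did not deviate together (correlations across genes of -0.189 to 0.185), so the numbers do not pair the animals; the block moved the count of calls in Treat versus DN alone by over 1.5 times.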
